A study of Mus musculus with 15 samples.

Results

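Neurons splice many messages differently from other cells, and a small set of RNA-binding proteins sets much of that difference. The 10 genes described here are the regulators usually named for it: Qk (Quaking), Ptbp1, Ptbp2, Rbfox1, Rbfox2, Rbfox3, Nova1, Nova2, Srrm4 and Elavl4. They were chosen by gene symbol, and all 10 were found among the 18536 genes measured. The tissue was mouse auditory nerve, the bundle of spiral ganglion neurons, their axons and the glia that myelinate them inside the cochlea. There were 15 libraries, 3 at each of postnatal days (P) 3, 7, 14 and 21 and 3 from adults, each from the nerves of both cochleae of 1 mouse. Strain, sex, genotype and the age of the adults were not given in the sources used here, no treatment was named, and the adult libraries carry the name CTRL, so a difference between adults and younger mice cannot be told apart from a difference in how those mice or libraries were handled.

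These proteins bind short motifs in unspliced RNA and favour or block nearby exons. PTBP1 is found in most dividing and non-neuronal cells and represses neuronal exons; its paralog PTBP2 takes over in neurons. RBFOX and NOVA proteins promote or silence exons according to where they bind, SRRM4 promotes the inclusion of very short neuronal exons, ELAVL4 (HuD) stabilises and splices neuronal messages, and Quaking acts mainly in glia, where it is needed for myelin. In bulk tissue, fewer cells of a type and less RNA per cell cannot be told apart, so each value below is a level in the whole nerve sample.

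Values are normalized read counts, that is, the reads of a gene after scaling of the whole library by its size factor. Library totals recovered from them ranged from 35250155 to 42258738 reads, and 3 reads, the limit used for a count of 0, equalled a normalized count of 2.53 to 3.65. Every member was above that limit in every library, with 122 as the lowest value, and all 10 passed the filter on low values. Differences are log2 fold changes of the later over the earlier age with their standard error (SE), from limma fitted to log2(value + 1) over all 15 libraries and 16723 genes. A gene "rose" or "fell" where the Benjamini-Hochberg adjusted p was under 0.05. Of the markers used to check the tissue, all 12 neuron genes and all 12 Schwann cell and myelin genes were present. Summed neuron markers averaged 87367 normalized counts at P3, 98745 at P7, 348677 at P14, 350617 at P21 and 473538 in adults. Schwann and myelin markers averaged 312227, 929783, 1289221, 842810 and 564150 at the same ages. The summed level of 8 fibroblast and matrix genes averaged 80593 in adults against 792019 at P3, and that of 8 bone and cartilage genes 14648 against 516699. The part that cell makeup plays in the results below was not tested. In 4 libraries (P14 replicate 1, P21 replicates 1 and 2, adult replicate 3) Xist, the RNA of the inactive X chromosome, was between 24201 and 44422 normalized counts, against at most 1107 in the others.

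All 10 regulators differed between adults and P3: 9 rose and Ptbp1 fell. Of all genes tested, 68.7% were called in that comparison, 34.4% higher and 34.3% lower. Under quantile normalization and under scaling to the total count, 7 rose and 1 fell, since Qk and Ptbp2 were no longer called; total-count scaling also changed the split over all genes, to 4180 higher and 7586 lower against 5751 and 5744, with their median at -0.27. The changes came in steps that most members shared. From P3 to P7, 3 rose (Qk, Ptbp2, Elavl4) and 4 fell (Rbfox2, Rbfox3, Nova2, Srrm4), against a background of 28.1% of genes called, 15.4% higher and 12.8% lower. Under total-count scaling 2 rose and 6 fell, and under quantile normalization 2 rose and 5 fell; without P3 replicate 3, or without P7 replicate 6, 4 members were called. From P7 to P14, 8 rose and Ptbp1 fell, where 48.1% of genes were called, 24.3% higher and 23.8% lower. From P14 to P21 none rose and only Qk fell, with a background of 9.29%, of which 3.29% of all genes were higher and 6.0% lower. From P21 to adult, 6 rose (the 3 Rbfox genes, both Nova genes and Srrm4) and Ptbp1 fell, with a background of 49.4%, 25.4% higher and 24.1% lower. Over all 5 ages jointly all 10 were called, as were 85.4% of genes. The median log2 fold change of the members was -0.21 for P7 against P3, 0.95 for P14 against P7, -0.03 for P21 against P14, 0.54 for adult against P21 and 1.25 for adult against P3, while the median over all genes tested lay between -0.02 and 0.00 in the same comparisons. Libraries of the later and the earlier age did not overlap for 8 of the 10 members at P7 against P3 (54.2% of all genes tested), 9 at P14 against P7 (61.4%), 2 at P21 against P14 (24.4%), 7 at adult against P21 (56.1%) and 10 at adult against P3 (76.4%). Neighbouring comparisons share an age, so a low value at P7 enters both the first and the second of them.

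**Figure D1:**
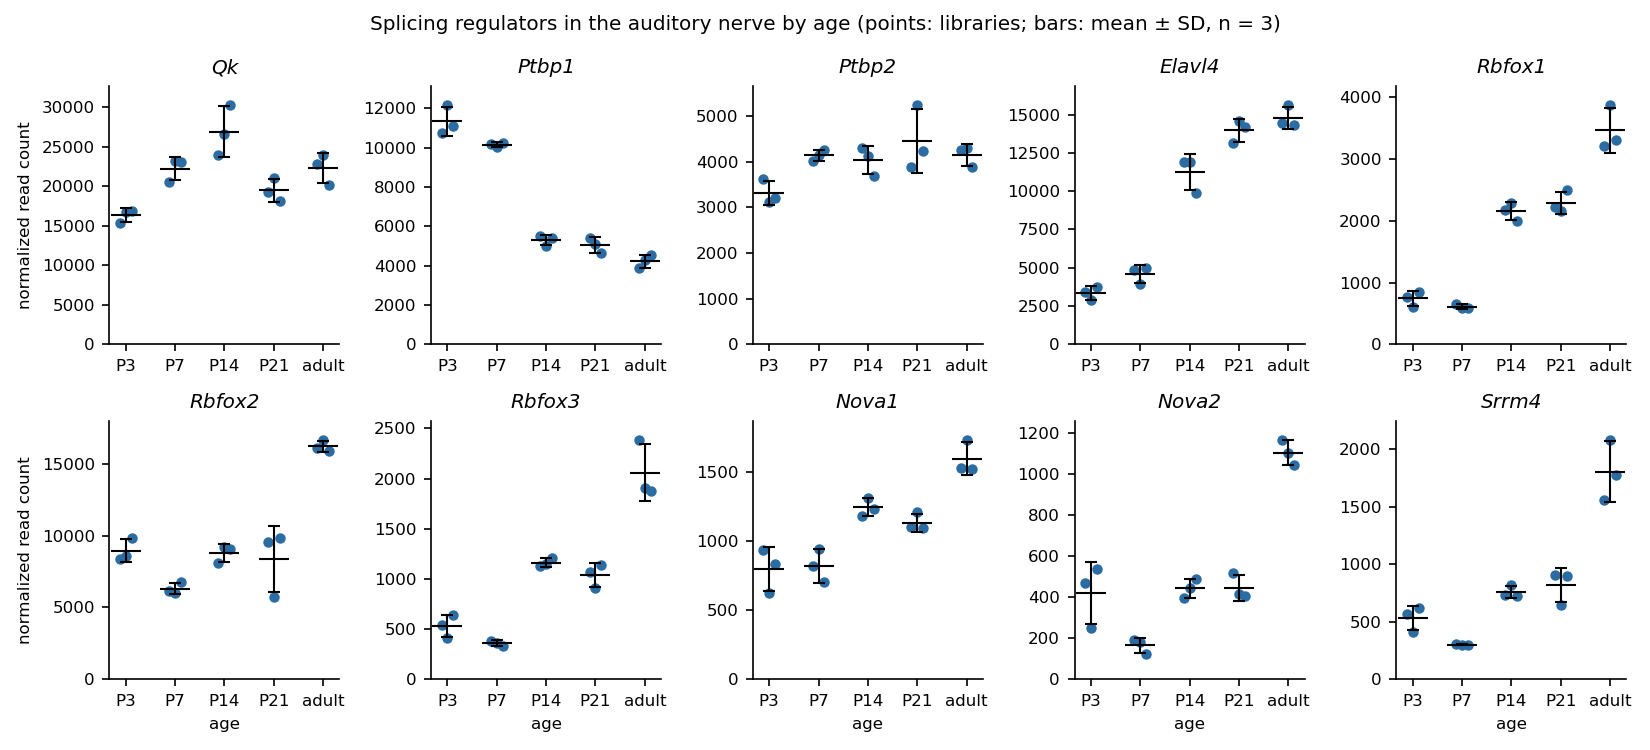
Normalized read count (y axis, linear from 0) of each of the 10 regulators in every library against age; points are libraries and bars the mean ± SD (n = 3). Ptbp1 is the panel that steps down after P7, whereas Rbfox1, Rbfox3, Nova2 and Srrm4 are lowest at P7 and highest in adults.

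**Figure D2:**
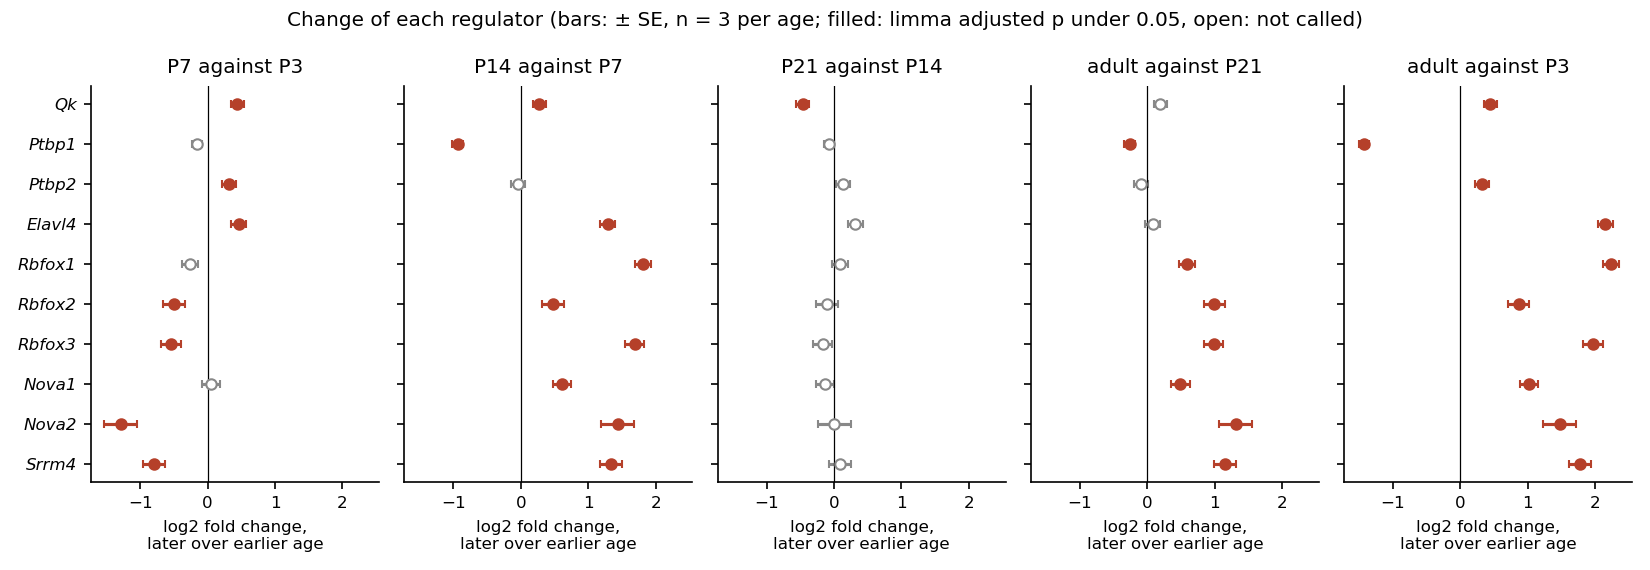
Log2 fold change (x axis, later over earlier age) of each regulator in 5 comparisons, with bars of ± SE. Filled points are called by limma (adjusted p under 0.05); in the panel of P21 against P14 only Qk, at -0.46, is filled.

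The polypyrimidine tract-binding proteins come first because one controls the other. PTBP1 causes a 34-base exon of the Ptbp2 message to be skipped, which shifts the reading frame and exposes the message to decay, and Ptbp1 carries a matching exon through which its own protein acts. Both exons are shown because this regulation acts through them; capitals mark the bases at which they differ, 8 of 34, while the other 26 are identical.
Ptbp1: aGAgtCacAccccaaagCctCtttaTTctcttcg
Ptbp2: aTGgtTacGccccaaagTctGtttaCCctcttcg
They are exon 9 of 13 of its transcript in GENCODE M21, at chr10:79862014-79862047 on the plus strand, and exon 10 of 14 of the Ptbp2 transcript, at chr3:119724612-119724645 on the minus strand (build GRCm38). Counts are per gene, so the share of messages that hold either exon was not analysed here.

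Ptbp1 (10:79854432-79864435, build mm10 as for all genes below) had 10734, 12164 and 11110 normalized counts in the P3 libraries, 10209, 10013 and 10256 at P7, 5531, 5000 and 5381 at P14, 5423, 5091 and 4644 at P21, and 3867, 4262 and 4529 in adults. The 6 libraries of P3 and P7 stood well above the other 9, and no adult library reached the lowest P21 library. The main drop was from P7 to P14, a log2 fold change of -0.94 ± 0.08 (SE; limma adjusted p = 6.41e-07), or 1.92-fold lower at P14. Adults were 2.69-fold lower than P3 (-1.43 ± 0.08, limma adjusted p = 2.67e-09), and lower than P21 by a small step (-0.26 ± 0.08, limma adjusted p = 0.0147). That last call was lost without P21 replicate 1 (limma adjusted p = 0.0580), without adult replicate 1 (0.0699) and with only both ages in the fit (0.0791). Without the 4 libraries with high Xist, which leaves P21 replicate 3 alone at its age, the difference was -0.19. P7 against P3 was not called (-0.16 ± 0.08, limma adjusted p = 0.15), although total-count scaling (-0.23, 0.0464) and quantile normalization (-0.27, 0.0259) made it a call. Ptbp1 shares exonic bases with genes on the opposite strand, of which Plppr3, with 251 shared bases, was the highest at up to 2935 normalized counts; whether the counting used strand is not given in the sources used here, so reads of such pairs cannot be told apart. Summed markers of dividing cells (6 genes) were also lower in adults than at P3. All 6 were called lower at P14 against P7 and at adult against P21, where 23.8% and 24.1% of all genes were lower. At P7 against P3 1 of them was called lower (12.8% of all genes), and at P21 against P14 none was (6.0%). The sums were at 11907 to 13647 normalized counts at P3, 6596 to 6701 at P7, 971 to 2870 at P14, 1645 to 5409 at P21 and 565 to 701 in adults. Their part in the result was not tested.

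Ptbp2 (3:119718742-119783388) had 3621, 3121 and 3210 normalized counts at P3, 4007, 4150 and 4248 at P7, 4298, 4117 and 3694 at P14, 3874, 5237 and 4234 at P21, and 4259, 4300 and 3878 in adults. All P3 libraries lay below all others, and the 4 later ages overlapped. Ptbp2 rose by 0.32 ± 0.10 on the log2 scale from P3 to P7 (limma adjusted p = 0.0326) and adults stood 1.25-fold above P3 (0.32 ± 0.10, limma adjusted p = 0.0124). Neither call held under every choice. The adult call was lost under quantile normalization (0.11, adjusted p = 0.411), total-count scaling (0.06, 0.611) and without P3 replicate 2 (0.28, 0.0504), and the P7 call under both scalings (0.0813 and 0.0961) and without P3 replicates 2 or 3 or any of the P7 libraries (limma adjusted p between 0.0633 and 0.112). Its joint call over the 5 ages (limma adjusted p = 0.0174) was lost under both scalings (0.0760 and 0.118) and without P3 replicate 2 (0.0920) or P3 replicate 3 (0.0769).

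The ratio of Ptbp2 to Ptbp1 within a library does not depend on the size factor of that library. It averaged 0.294 ± 0.041 at P3, 0.407 ± 0.013 at P7, 0.762 ± 0.070 at P14, 0.885 ± 0.159 at P21 and 0.989 ± 0.124 in adults (SD, n = 3). Single libraries ranged from 0.856 to 1.101 in adults, against 0.257 to 0.337 at P3, so that these ages did not overlap. The adult ratio was 3.36-fold the P3 ratio, a log2 difference of 1.75 (exact two-sided permutation test, p = 0.1, the smallest that 3 against 3 can give; 0.167 adjusted over the 5 comparisons). P7 did not overlap with P3, nor P14 with P7, at log2 differences of 0.48 and 0.90 (exact permutation p = 0.1 for both), whereas P21 against P14 and adult against P21 overlapped (0.20 and 0.17; exact permutation p = 0.3 and 0.5). Per kilobase of exon, Ptbp1 remained above Ptbp2 at every age: it averaged 890 ± 70.3 normalized counts per kb in adults, when Ptbp2 averaged 452 ± 25.4, and 2392 ± 156 at P3, when Ptbp2 averaged 362 ± 29.1.

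**Figure D3:**
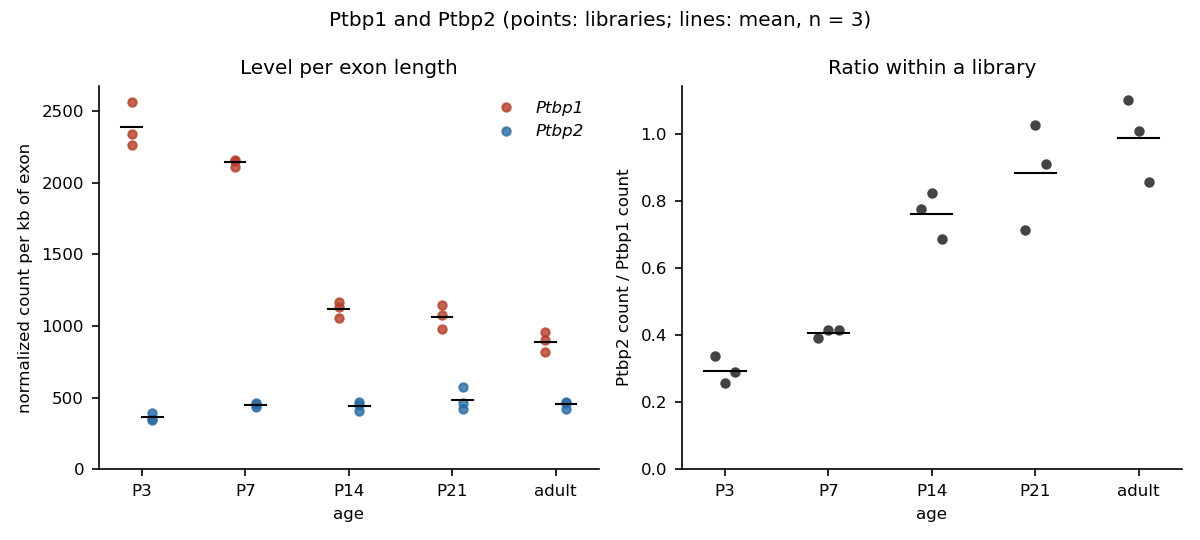
Left, normalized counts per kb of exon (y axis) of Ptbp1 and Ptbp2 by age; right, the ratio of their counts within each library. Points are libraries and lines the mean (n = 3); the ratio is at most 0.337 at P3 and at least 0.856 in adults.

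Quaking is made in forms that share the RNA-binding part and differ in their last coding bases: QKI-5, which stays in the nucleus and acts on splicing, and QKI-6 and QKI-7, found mainly in the cytoplasm, where they stabilise, move or hold back messages such as that for myelin basic protein. In GENCODE M21 the 3 forms share their first 934 coding bases and then end as follows, with the stop codon in capitals; the ends are shown because they are the part that tells the forms apart.
QKI-5: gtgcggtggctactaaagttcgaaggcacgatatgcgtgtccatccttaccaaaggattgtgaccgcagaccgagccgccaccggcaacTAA
QKI-6: gtatggctttcccaacgaaaggcTAA
QKI-7: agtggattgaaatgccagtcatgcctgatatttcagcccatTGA
They close reading frames of 341, 319 and 325 codons for QKI-5, QKI-6 and QKI-7, and lie on the minus strand of chromosome 17 (GRCm38): the QKI-6 end at chr17:10214169-10214194, the QKI-7 end at chr17:10215431-10215474, and the spliced QKI-5 end within chr17:10209615-10213433. The gene count sums all forms.

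Qk (17:10206471-10319361) had 15392, 16786 and 16874 normalized counts at P3, 20505, 23136 and 23020 at P7, 23883, 26604 and 30248 at P14, 19252, 20994 and 18110 at P21, and 22773, 23878 and 20188 in adults. It was lowest at P3 and highest at P14; the P14 libraries lay above those of P7 and P21, and adults overlapped with P7 and P21. Qk was the only member called between P14 and P21. It rose 1.36-fold from P3 to P7 (0.44 ± 0.10, limma adjusted p = 0.00511) and 1.21-fold from P7 to P14 (0.27 ± 0.10, limma adjusted p = 0.0339), and P21 stood 1.38-fold below P14 (-0.46 ± 0.10, limma adjusted p = 0.0109). Adult against P21 was not called (0.19 ± 0.10, 95% interval -0.02 to 0.40, limma adjusted p = 0.113). Without the 4 libraries with high Xist, which leaves P21 replicate 3 alone at its age, the difference was 0.36.

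The rise of Qk from P3 to P7 kept its call under every alternative run (limma or count-model adjusted p at most 0.0258). The rise to P14 did not: it was lost under quantile normalization (0.04, 0.720), total-count scaling (0.16, 0.161) and without P7 replicate 4 (0.136), P14 replicate 2 (0.0714) or P14 replicate 3 (0.148). The step down to P21 was lost without P14 replicate 3 (-0.38, limma adjusted p = 0.0547) and with only both ages in the fit (0.130). Adults stood 1.36-fold above P3 (0.44 ± 0.10, limma adjusted p = 0.00112), but quantile normalization turned the direction (-0.05, 0.671) and total-count scaling ended the call (0.18, 0.0884); the cause was not tested.

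P14 replicate 3, the library with the highest Qk count, also had the highest summed Schwann and myelin markers, 1633888 normalized counts against 1082981 and 1150793 in the other two P14 libraries. Its summed oligodendrocyte markers (8 genes, all present) were 53680, against 14014 and 22382. Over the ages the oligodendrocyte sums ranged from 13031 to 16787 at P3, 15928 to 31680 at P7, 14014 to 53680 at P14, 16363 to 32188 at P21 and 18656 to 21574 in adults. The part of glial content in the Qk values was not tested. Among messages that Quaking is known to handle, Mbp (myelin basic protein) averaged 73911 ± 8537 normalized counts at P3, 245581 ± 15539 at P7, 350751 ± 187880 at P14, 221349 ± 92774 at P21 and 165313 ± 23185 in adults, with a spread at P14 and P21 that leaves those ages overlapping with P7.

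RBFOX proteins bind the motif GCATG. RBFOX1 and RBFOX3 (the NeuN antigen) are found in neurons and muscle or neurons alone, and RBFOX2 is widespread. Rbfox1 (16:5884793-7412480) had 772, 603 and 850 normalized counts at P3, 659, 585 and 591 at P7, 2182, 2295 and 1998 at P14, 2218, 2164 and 2495 at P21, and 3209, 3876 and 3314 in adults. P3 and P7 overlapped, P14 and P21 overlapped, and every adult library was above both. The rise from P7 to P14 was 3.53-fold (1.82 ± 0.12, limma adjusted p = 9.51e-08) and from P21 to adult 1.51-fold (0.59 ± 0.12, limma adjusted p = 0.00169). Without the 4 libraries with high Xist, which leaves P21 replicate 3 alone at its age, the second difference was 0.50. P7 against P3 was not called (-0.27 ± 0.12, limma adjusted p = 0.112) but was without P3 replicate 2 (-0.41, 0.0177) and under total-count scaling (-0.34, 0.0437). Adults stood 4.70-fold above P3 (2.23 ± 0.12, limma adjusted p = 2.24e-09), the largest fold among the 10 members.

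Rbfox3 (11:118489760-118911597) had 543, 415 and 635 normalized counts at P3, 382, 364 and 332 at P7, 1129, 1150 and 1209 at P14, 1064, 909 and 1142 at P21, and 2385, 1908 and 1880 in adults. It was lowest at P7, where no library reached the lowest of P3, and highest in adults. P7 was 1.45-fold below P3 (-0.54 ± 0.14, limma adjusted p = 0.0137), a call lost without P3 replicate 3 (0.0674) or P7 replicate 6 (0.0515). It rose 3.23-fold from P7 to P14 (1.69 ± 0.14, limma adjusted p = 7.96e-07) and 1.98-fold from P21 to adult (0.98 ± 0.14, limma adjusted p = 0.000289).

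Rbfox2 (15:77078990-77307053) had 8380, 8586 and 9858 normalized counts at P3, 6141, 6037 and 6744 at P7, 8072, 9203 and 9073 at P14, 9582, 5715 and 9854 at P21, and 16132, 16681 and 15906 in adults. P21 replicate 2 was below every P7 library while the other two P21 libraries were near P14, and the 3 adult libraries stood above all others. Adults were 1.99-fold above P21 (0.996 ± 0.160, limma adjusted p = 0.000483) and 1.82-fold above P3 (0.86 ± 0.16, limma adjusted p = 0.000288). The dip at P7 was smaller: 1.42-fold below P3 (-0.50 ± 0.16, limma adjusted p = 0.0326), with P14 then 1.39-fold above P7 (0.48 ± 0.16, limma adjusted p = 0.0248). Each of those calls was lost on leaving out single libraries, the first without P3 replicates 2 or 3 or any P7 library (limma adjusted p between 0.0501 and 0.119), and the second without P7 replicates 4 or 5 or P14 replicates 2 or 3 (0.0646 to 0.0759) and under total-count scaling (0.0645).

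Set against one another per kilobase of exon, the 3 Rbfox genes shifted in their shares. Rbfox2 made up 80.9% ± 2.3 of the family's summed level at P3, 79.4% ± 1.7 at P7, 60.9% ± 1.9 at P14, 58.8% ± 6.0 at P21 and 63.6% ± 0.8 in adults (SD, n = 3). Rbfox1 took 12.4% ± 1.4, 14.3% ± 1.1, 27.8% ± 2.0, 30.7% ± 5.0 and 25.1% ± 1.8 at the same ages. Rbfox3 took 6.68% ± 0.90 at P3 and 11.3% ± 1.6 in adults. The Rbfox1 share at P14, between 25.6% and 29.5%, did not overlap with that at P7, between 13.2% and 15.4%.

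NOVA proteins bind clusters of YCAY and were first known as neuronal antigens. Nova1 (12:46694517-46818775) had 936, 623 and 832 normalized counts at P3, 817, 944 and 702 at P7, 1186, 1314 and 1236 at P14, 1100, 1210 and 1094 at P21, and 1534, 1735 and 1524 in adults. P3 and P7 overlapped, as did P14 and P21, in 2 steps like those of Rbfox1. It rose 1.53-fold from P7 to P14 (0.61 ± 0.14, limma adjusted p = 0.00243) and 1.41-fold from P21 to adult (0.49 ± 0.14, limma adjusted p = 0.0102). Without the 4 libraries with high Xist, which leaves P21 replicate 3 alone at its age, the second difference was 0.58. Adults stood 2.03-fold above P3 (1.02 ± 0.14, limma adjusted p = 1.69e-05).

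Nova2 (7:18925888-18965319) had 469, 248 and 536 normalized counts at P3, 191, 182 and 122 at P7, 397, 443 and 487 at P14, 517, 414 and 404 at P21, and 1165, 1101 and 1045 in adults. All P7 libraries lay below all others, and all adult libraries lay above them. Nova2 was 2.44-fold lower at P7 than at P3 (-1.29 ± 0.24, limma adjusted p = 0.00209), 2.71-fold higher at P14 than at P7 (1.44 ± 0.24, limma adjusted p = 0.000304) and 2.49-fold higher in adults than at P21 (1.32 ± 0.24, limma adjusted p = 0.0011). A noncoding gene on the opposite strand, Gm26821, overlaps 31.7% of the exonic bases of Nova2 and has no row of its own here, so its reads, if any were counted, cannot be told apart. Per kilobase, Nova1 made up 65.4% ± 5.4 of the pair at P3, 82.8% ± 2.2 at P7, 73.0% ± 1.8 at P14, 71.0% ± 3.5 at P21 and 58.0% ± 2.2 in adults (SD, n = 3).

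Srrm4 (5:116439273-116591817), also called nSR100, had 568, 410 and 616 normalized counts at P3, 306, 294 and 300 at P7, 735, 821 and 727 at P14, 906, 645 and 894 at P21, and 1558, 2079 and 1777 in adults. Its order of ages is that of Nova2: lowest at P7, with P14 and P21 overlapping and adults above all. P7 stood 1.74-fold below P3 (-0.80 ± 0.16, limma adjusted p = 0.00311), P14 2.53-fold above P7 (1.34 ± 0.16, limma adjusted p = 1.83e-05) and adults 2.22-fold above P21 (1.15 ± 0.16, limma adjusted p = 0.000238). Rest, the repressor of neuronal genes that silences Srrm4 in other cells and whose own splicing SRRM4 changes, moved the other way between the end points, at 687 ± 51.6 normalized counts in adults against 1435 ± 162 at P3 (SD, n = 3; log2 fold change -1.06 ± 0.33, limma adjusted p = 0.0125). Rest was not called in any comparison of neighbouring ages, and a link between the 2 genes was not tested.

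Elavl4 (4:110203737-110351911) had 3423, 2886 and 3734 normalized counts at P3, 4868, 3932 and 5010 at P7, 11941, 11930 and 9871 at P14, 13129, 14599 and 14216 at P21, and 14482, 15628 and 14299 in adults. All P7 libraries lay above all P3 libraries, and adult libraries overlapped with P21. It rose 1.37-fold from P3 to P7 (0.46 ± 0.11, limma adjusted p = 0.00975) and 2.45-fold from P7 to P14 (1.29 ± 0.11, limma adjusted p = 1.12e-06). P21 libraries all lay above those of P14, at a difference that was not called (0.32 ± 0.11, limma adjusted p = 0.0989), and adult against P21 was near 0 (0.08, 95% interval -0.16 to 0.33, limma adjusted p = 0.569), turning to -0.12 under quantile normalization. Adults stood 4.44-fold above P3 (2.15 ± 0.11, limma adjusted p = 2.08e-09).

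The neuron markers rose in the same step as most members. Of these 12, 9 were called higher at P14 than at P7 and none lower, where 24.3% of all genes were higher and 23.8% lower. Each member was therefore also given relative to the mean log2 level of the 12 markers in its own library, as a description: an exact permutation test of 3 libraries against 3 cannot give a p below 0.1. That mean was 14.00 in adults and 12.26 at P3, and it was 13.65 at P14 and 12.37 at P7. The P14 over P7 difference relative to the markers was 0.01 for Elavl4, 0.06 for Srrm4 and 0.16 for Nova2, with libraries of both ages overlapping for all 3. It was 0.54 for Rbfox1 and 0.41 for Rbfox3, without overlap. Ptbp1 was at -2.22, Ptbp2 at -1.32, Qk at -1.01, Rbfox2 at -0.80 and Nova1 at -0.67 on this scale. Each of these values has the markers' own rise of 1.28 subtracted, also for Qk and Ptbp1, which are described above as acting mainly outside neurons.

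Between P7 and P3 the markers' mean moved by 0.11. With so small a shift subtracted, the relative values largely repeat each member's own log2 fold change and are no separate result. For the members called lower at P7 they were -1.39 for Nova2, -0.91 for Srrm4, -0.65 for Rbfox3 and -0.61 for Rbfox2, without overlap. Rbfox1, not called and overlapping on its own scale, was at -0.37 without overlap. Elavl4 was higher, at 0.35, without overlap, and Qk, Ptbp1, Ptbp2 and Nova1 overlapped. The part of neuron content in these values was not tested. Between adult and P21 the markers' mean moved by 0.50. Relative to it Nova2 differed by 0.81 and Rbfox3 by 0.48 without overlap, and Srrm4 by 0.65 and Rbfox2 by 0.49 with overlap. Ptbp1, at -0.76, Ptbp2, at -0.59, and Elavl4, at -0.42, were lower without overlap, and Qk, at -0.31, with overlap. Rbfox1, at 0.09, and Nova1, at -0.01, differed little from the markers there. Between adult and P3 the differences were 0.04 for Srrm4, -0.26 for Nova2, 0.23 for Rbfox3, 0.49 for Rbfox1 and 0.41 for Elavl4, against -0.72 for Nova1, -0.87 for Rbfox2, -1.29 for Qk, -1.42 for Ptbp2 and -3.16 for Ptbp1.

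**Figure D4:**
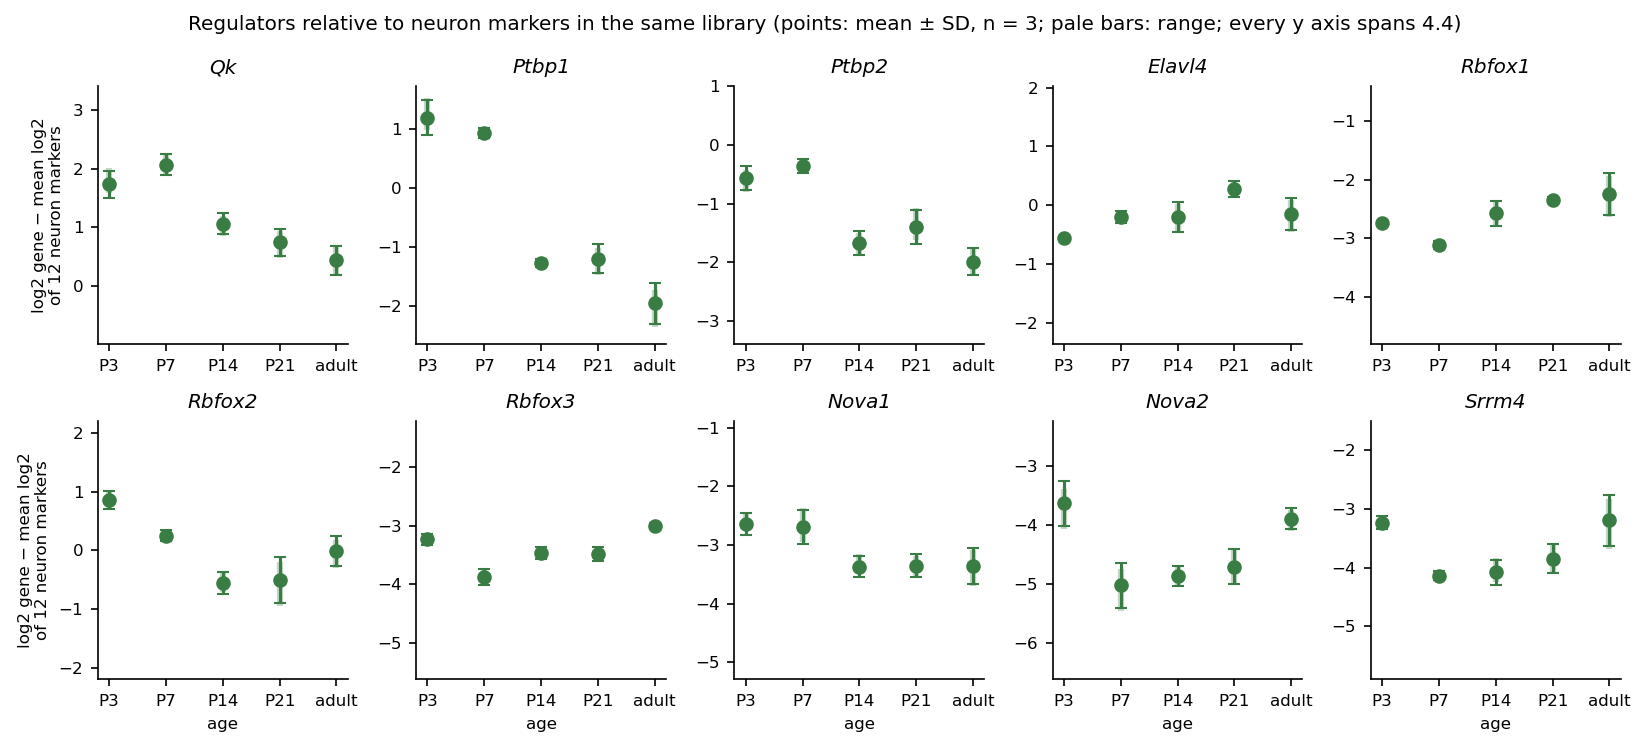
Log2 level of each regulator minus the mean log2 level of 12 neuron markers in the same library (y axis; each panel spans the same number of log2 units) by age; points are means with SD and pale bars the range (n = 3). Nova2, Srrm4 and Rbfox3 are lower at P7 than at P3 on this scale, and Ptbp1 stands at -1.96 in adults, against 1.20 at P3.

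Ordered by level per kilobase of exon, Ptbp1 was the highest member at P3, with 2392 ± 156 normalized counts per kb, ahead of Qk (1148 ± 58.4) and Rbfox2 (1098 ± 98.4), whose libraries overlapped. At P7 the order at the top was Ptbp1, Qk and then Elavl4 and Rbfox2, which overlapped with each other. From P14 on Elavl4 led, at 2088 ± 221 per kb at P14, overlapping with Qk at 1890 ± 224, then 2595 ± 142 at P21 and 2748 ± 134 in adults, where no other member overlapped with it. Adults had Rbfox2 in second place (1995 ± 49.0 per kb) and Qk next (1564 ± 133), followed by Ptbp1 and Rbfox1, which overlapped at 890 ± 70.3 and 788 ± 81.5. Nova2 was the lowest at every age, with 49.9 ± 18.02 per kb at P3, 19.7 ± 4.5 at P7 and 132 ± 7.2 in adults, although at P3 its libraries overlapped with those of Srrm4. The coordinates given for Qk start 3870 bases inside its GENCODE gene, against 5 for Ptbp1, 0 for Rbfox2 and 15 for Elavl4. The level of Qk per kb may therefore be too low, and its place next to Ptbp1, Rbfox2 and Elavl4 in this order is uncertain. Those of Rbfox1 end 954 bases beyond its GENCODE gene, so its level per kb, and its share of the Rbfox family, may be too high.

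The genes whose log2 levels followed each member most closely over the 15 libraries were named by Pearson correlation, as a description. Libraries of 1 age share that age, so these values say mainly that 2 genes have the same profile of 5 ages. Qk was nearest to Slc44a1, a choline transporter (r = 0.941), then Samd8 (0.909) and Sgcb (0.901). Slc44a1 averaged 5458 ± 420 normalized counts at P3, 7048 ± 373 at P7, 8024 ± 1104 at P14, 6276 ± 351 at P21 and 7008 ± 482 in adults, highest at P14 and lowest at P3 like Qk. Ptbp1 was nearest to Fnbp1l (0.991), G3bp1 (0.990) and the cell cycle kinase Cdk4 (0.990), which averaged 2092 ± 108 in adults and 8953 ± 517 at P3. Ptbp2 was nearest to Kyat1 (0.940).

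Rbfox1 was nearest to Srrm3 (0.996), a paralog of Srrm4 that also promotes short exons, then Stac2 and Maneal (0.995 each). Rbfox3 was nearest to Svop, a synaptic vesicle protein, Rusc1 and Pitpnc1 (0.992 each), and Rbfox2 to Kansl3 (0.992), Baz2a (0.986) and Ccdc93 (0.985). Nova1 was nearest to Car10 (0.969), Nova2 to Mab21l2 (0.976) and Fbxo41 (0.974), and Srrm4 to Pde4a (0.993), Lingo1 (0.991) and Mast1 (0.989). Elavl4 was nearest to Gpr39 (0.995), to Snap25 (0.995), a synaptic protein that is one of the neuron markers, and to Them6 (0.995).

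Other splicing regulators, some limited to certain tissues and some widespread, moved in both directions. Of 27 measured, 10 rose and 11 fell in adults against P3, near the shares over all genes tested (34.4% higher and 34.3% lower), with a median log2 fold change of 0.10 that turned to -0.09 under quantile normalization and -0.16 under total-count scaling. Those that rose included Srrm3, at 2115 ± 145 normalized counts in adults against 337 ± 71.5 at P3 (2.67 ± 0.14, limma adjusted p = 1.58e-09), and the muscleblind gene Mbnl2, which governs the switch to adult exon choices, at 26762 ± 1941 against 8615 ± 546 (1.63 ± 0.08, limma adjusted p = 1.003e-09). Rbm20, known as the regulator of titin splicing in heart, stood at 1060 ± 92.6 in adults against 275 ± 12.1 at P3 (1.94 ± 0.11, limma adjusted p = 2.79e-09). The neuronal paralogs of Elavl4 rose too, Elavl2 by 1.56 ± 0.20 and Elavl3 by 1.96 ± 0.29 on the log2 scale, whereas the widespread Elavl1 was not called (0.10 ± 0.09, limma adjusted p = 0.306). The Celf genes were mixed in the same comparison: Celf4 rose, Celf1 and Celf2 fell, and Celf3, Celf5 and Celf6 were not called.

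Those that fell included Ptbp3, another member of the PTB family, at 2628 ± 116 normalized counts in adults against 5981 ± 381 at P3, and Tia1, at 3668 ± 195 against 7257 ± 428 (-0.98 ± 0.07, limma adjusted p = 4.65e-08). The epithelial regulators Esrp1 and Esrp2, the muscle regulator Rbm24, and Mbnl3, at 12.6 ± 7.2 in adults against 277 ± 33.4 at P3, fell as well. At P14 against P7, 9 of the 27 rose and 10 fell, where 24.3% of all genes were higher and 23.8% lower.

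Most general splicing factors were lower in adults. Of 15 SR proteins, Tra2 and SR-related genes, which help the spliceosome choose exons in all cells, 13 fell and 2 rose in adults against P3, where 34.3% of all genes were lower and 34.4% higher, with a median log2 fold change of -0.47 (-0.76 under quantile normalization, -0.73 under total-count scaling). Of 23 heterogeneous nuclear ribonucleoproteins (hnRNPs), which often oppose them, 18 fell, 2 rose and 3 were not called, with a median of -0.36 (-0.68 and -0.62 under those scalings). At P14 against P7, 9 of 15 SR genes and 17 of 23 hnRNP genes fell and none rose, against 23.8% of all genes lower and 24.3% higher. Hnrnpf stood at 6068 ± 46.7 normalized counts in adults against 14037 ± 366 at P3 (-1.21 ± 0.08, limma adjusted p = 1.02e-08), Srsf6 at 7436 ± 326 against 14039.5 ± 151 (-0.92 ± 0.07, limma adjusted p = 5.78e-08) and Syncrip at 3804 ± 132 against 7398 ± 220 (-0.96 ± 0.06, limma adjusted p = 8.45e-09). Tra2b, which binds purine-rich enhancers, stood at 2510 ± 33.2 in adults against 4992 ± 400 at P3. The exceptions were Srrm1 and Srrm2 among the SR genes and Hnrnph2 and Hnrnph3 among the hnRNPs, which rose. Under total-count scaling none of these 4 was called and under quantile normalization only Hnrnph3, while 13 SR genes and 20 hnRNP genes fell under both. Hnrnpa2b1, Hnrnpab, Srsf11 and Srsf12 fell too, with log2 fold changes of -0.66, -0.88, -0.43 and -2.59 between the same ages.

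**Figure D5:**
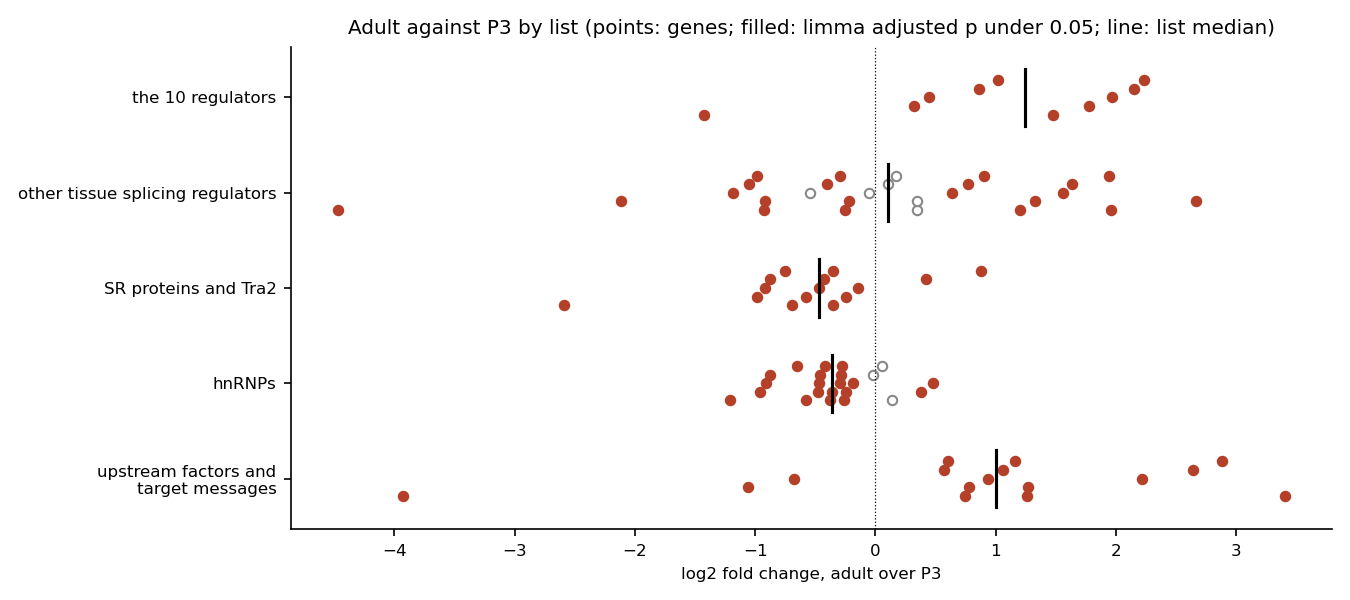
Log2 fold change of adult over P3 (x axis) for each gene of 5 lists (rows); filled points are called by limma, open points are not, and vertical lines are the list medians. The 10 regulators have a median of 1.25 with Ptbp1 alone below 0, while the SR and hnRNP medians are -0.47 and -0.36.

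Of 16 genes known to act on the members or to have messages that they handle, 13 rose and 3 fell in adults against P3; under quantile normalization and total-count scaling 11 rose and 3 fell. Mir124a-1hg, the host transcript of a neuronal microRNA known to repress Ptbp1, stood at 7716 ± 828 normalized counts in adults against 740 ± 163 at P3, a difference of 3.40 ± 0.17 on the log2 scale (limma adjusted p = 1.11e-09); the microRNA itself was not analysed here. Dlg4, which encodes PSD-95 and whose message PTB proteins hold back through exon skipping, was at 5100 ± 207 in adults against 2133 ± 227 at P3 (1.26 ± 0.11, limma adjusted p = 3.57e-07). Map1b, a Quaking target in glia and a major axonal protein, was at 94155.5 ± 4016 against 13221 ± 4370 (2.88 ± 0.26, limma adjusted p = 3.62e-07). Gap43, a growth cone gene whose message HuD stabilises, fell, at 136 ± 100 in adults against 1785 ± 255 at P3 (-3.93 ± 0.41, limma adjusted p = 1.49e-06). Agrn fell too (-0.68 ± 0.16, limma adjusted p = 0.00199), but not throughout. It fell from P7 to P14 and rose from P21 to adult, the rise not being among those called under quantile normalization.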

How the data were processed

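The deposited table holds, per the file headers, 1 value per gene and library. The authors' per-library signal was read as a read count divided by 1 size factor, since dividing a library by its smallest step gave whole reads, to within 0.1 read, for 99.94% of its values above 0. The tools named are Partek, TopHat2 and DESeq2, with build mm10, per the submitters' processing notes; counting settings and strand use are not given in the sources used here. Per the labels, both cochleae of a mouse were pooled and RNA of low quality was left out.

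As the values are not counts, the test was limma 3.58.1 (R 4.3.3; trend, robust) on log2(value + 1), for the 16723 genes that reached 10 in 3 or more libraries, without covariates (10 residual degrees of freedom), and adjustment over all genes tested (Benjamini-Hochberg, two-sided). Alternatives were quantile, TMM and total-count scaling (the last chosen after seeing the data), filters, pseudocounts, edgeR 4.0.16 and DESeq2 1.42.0 on recovered reads, only both ages, and leaving libraries out. Levels per kb use the exon union of GENCODE M21 (GRCm38, which is mm10); sequences are from its transcripts.

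The members and lists were chosen with earlier results of these data known. Beyond the members, the rule named up to 4 genes per list with the smallest joint adjusted p and the 3 genes most correlated with each member (not every gene the rule allows is reported here). Ptbp3, Elavl1, Elavl2, Elavl3, the Celf genes, Esrp1, Esrp2, Rbm24, Mbnl3, Srrm1, Srrm2, Hnrnph2, Hnrnph3, Rest, Mbp and Agrn were chosen after their values were seen.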

Additional observations from a re-analysis of the deposited data

How the results depend on the processing

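Of 60 member results (10 genes in 5 comparisons and the joint test), 38 kept their direction and call under every alternative run, and of 1580 alternative values 1516 did. The number of genes called for P21 against P14 was the least stable, at 1553 in the fit of all ages: it was 147 with only both ages, 2519 with DESeq2, 760 without the 4 libraries with high Xist, 650 with the replicate block and 632 to 1968 on leaving out single libraries (632 without P14 replicate 3, 979 without P14 replicate 2). The 1 member called there was 0 with only both ages, and 0 to 1 on leaving out single libraries. For adult against P21, 5321 genes were called with only both ages and 3989 without the 4 libraries with high Xist, against 8266. For P7 against P3, leaving out single libraries gave 3075 to 6352 genes (3111 without P3 replicate 3, 3075 without P7 replicate 5), against 4703, and 4 to 7 members (4 without P3 replicate 3 or P7 replicate 6). Replicate numbers are shared by 4 ages (P7 is numbered apart), but deviations of same-numbered libraries correlated at -0.229 to 0.319, so they were not taken to pair the samples; the replicate block changed 1 member call, Ptbp1 in adult against P21 (limma adjusted p = 0.0524). Total-count scaling moved the median of all genes to -0.27 for adult against P3, -0.13 for P14 against P7 and -0.10 for adult against P21, with 4180 genes higher and 7586 lower in adults than at P3, where the fit reported has 5751 and 5744; it gave 3243 and 5133 for P14 against P7 (4065 and 3983), 3230 and 5222 for adult against P21 (4243 and 4023) and 1871 and 3047 for P7 against P3 (2568 and 2135). Direction turned as follows, always for a difference that was not called, except for Qk in adult against P3. Quantile normalization gave -0.046 for Qk in adult against P3, -0.036 for Qk and -0.12 for Elavl4 in adult against P21. Total-count scaling gave -0.020 for Nova1 in P7 against P3 and -0.024 for Elavl4 in adult against P21. TMM gave -0.0068 and edgeR -0.0021 for Nova2 in P21 against P14. Leaving out the 4 libraries with high Xist leaves P21 replicate 3 alone at its age. In that fit Ptbp2 in adult against P21 was 0.015, and in P21 against P14 Rbfox2 was 0.11 and Nova2 -0.20. Leaving out single libraries gave -0.084 to 0.025 for Ptbp2 in P14 against P7 (turned without P14 replicate 3), -0.19 to 0.032 for Ptbp2 in adult against P21 (P21 replicate 2) and -0.11 to 0.18 for Nova1 in P7 against P3 (P3 replicate 2, and -0.05 without P7 replicate 5). In P21 against P14 it gave -0.24 to 0.15 for Rbfox2 (P21 replicate 2), -0.11 to 0.077 for Nova2 (P21 replicate 1, and -0.07 without P14 replicate 1) and -0.0011 to 0.24 for Srrm4 (P21 replicate 1). The cause was not tested.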
